A study of Cricetulus griseus and Cricetulus griseus
Mus musculus and Mus musculus with 202 samples.

Results

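The genes described here are markers of microglia, the resident macrophages of the brain, and of macrophages elsewhere. They are a list of 9 genes, and 8 of them had a probe with that single symbol in the array's probe table: P2ry12, Ctss, Itgam, Cx3cr1, Aif1, Trem2, Tyrobp and Laptm5. Csf1r was not analysed here. Each of the 8 rested on 1 probe, among 16504 genes with a single symbol on the array. The rule names the genes and uses no measured value, though the list was drawn up with earlier results of these arrays known.

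The study measured RNA on 202 2-colour arrays, each of which gives the ratio of 2 RNA samples at every probe. On 4 arrays RNA of mouse tissue was set against RNA of the same tissue of the hamster, 2 arrays for whole brain and 2 for whole liver, with the dyes exchanged between the replicates. The labels name the Chinese hamster for replicate 1 and a hamster for replicate 2, and give no strain, age or number of animals. The other 198 arrays compared 99 lines of the T31 radiation hybrid panel with A23, the hamster recipient line, which is fibroblast-like and lacks thymidine kinase. Each hybrid line is a clone that carries random fragments of the mouse genome in a hamster cell, and each was measured on 2 arrays with exchanged dyes. The cultures of hybrids and A23 grew in DMEM with serum. Because the lines are hamster fibroblast clones, they hold no microglia, and they are described beside the tissues only as a background.

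Microglia enter the brain early in development and then renew themselves there, while the liver holds its own resident macrophages, the Kupffer cells. Microglia sense nucleotides and chemokines through G protein-coupled receptors, survive through signals of the colony-stimulating factor receptor, clear debris through receptors that signal by immunoreceptor motifs, and digest it in lysosomes. P2ry12 and Cx3cr1 are commonly used to tell microglia from other brain cells. Itgam, Aif1, Tyrobp, Laptm5, Trem2 and Ctss are shared with macrophages of other tissues.

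All values are log2 ratios, mouse over hamster in the tissues and hybrid over A23 in the lines. They are differences, not levels, so an order of expression among the genes cannot be read from them. The probes were designed for mouse, and weak binding of a hamster transcript cannot be told apart from higher expression in mouse. In these bulk tissues, fewer cells of a type and less RNA per cell cannot be told apart either. A binding difference that is the same in both tissues cancels in the brain value minus the liver value. It does so only where both tissues give signal above background. No intensities were used, so this condition was not tested for any member. Each ± value is the SE of the limma fit to the 4 tissue arrays or to the 99 lines, and a call needs a p under 0.05 after Benjamini-Hochberg adjustment over all genes.

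The replicate spread of the tissue arrays needs a caution that touches every member. In 99.3% of the array's features the median of the 4 deposited linear ratios, Cy5 over Cy3, was 1, so each feature had been centred over the 4 arrays. The 2 middle ratios of a feature then sum to 2 by construction. For P2ry12, Ctss, Itgam, Cx3cr1 and Laptm5 the middle pair was the 2 liver arrays, and for Aif1 it was the 2 brain arrays. For Trem2 and Tyrobp it was brain replicate 2 and liver replicate 1. Close replicates in the middle pair, such as the liver values of Laptm5, are therefore set by the centring and are no measure of precision. Of the 4 linear ratios, 2 lie at or above 1 and 2 at or below it. Where the middle pair is the 2 arrays of a tissue, the exchanged dyes then give both arrays of each tissue the same sign. For Trem2 and Tyrobp the same holds between brain replicate 2 and liver replicate 1, and between the other 2 arrays. Such agreement in sign is no separate observation. The exchange of dyes cancels the centring in each mean and in the brain value minus the liver value. A fit with the replicate number as a block takes out what centring and dye leave, and has 1 residual degree of freedom in place of 2. The centring ties the 2 middle arrays of a feature together, so the fit without the block overstates its degrees of freedom. With the block the SE was larger for P2ry12, Ctss, Itgam, Trem2 and Laptm5 (for Ctss 0.21 in place of 0.11). It was smaller for Cx3cr1, Aif1 and Tyrobp (for Aif1 0.23 in place of 0.40). For the 8 genes the values of the block fit are given wherever it changed a call, and for other lists its counts are given.

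The first comparison asked how the 8 genes differ between mouse and hamster brain. P2ry12, the ADP receptor by which microglia follow nucleotides released by damaged cells, was 27.6-fold higher in mouse brain. Ctss, cathepsin S, a lysosomal cysteine protease that also trims the invariant chain of MHC class II, was 8.21-fold higher. Itgam, the alpha chain of complement receptor CR3, was 2.42-fold lower. The other 5 genes were not called. Cx3cr1, Aif1, Tyrobp and Laptm5 had values below 0 on both brain arrays, and Trem2 had values above 0 on both. The centring sets that shared sign for Cx3cr1, Aif1 and Laptm5.

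**Figure D1:**
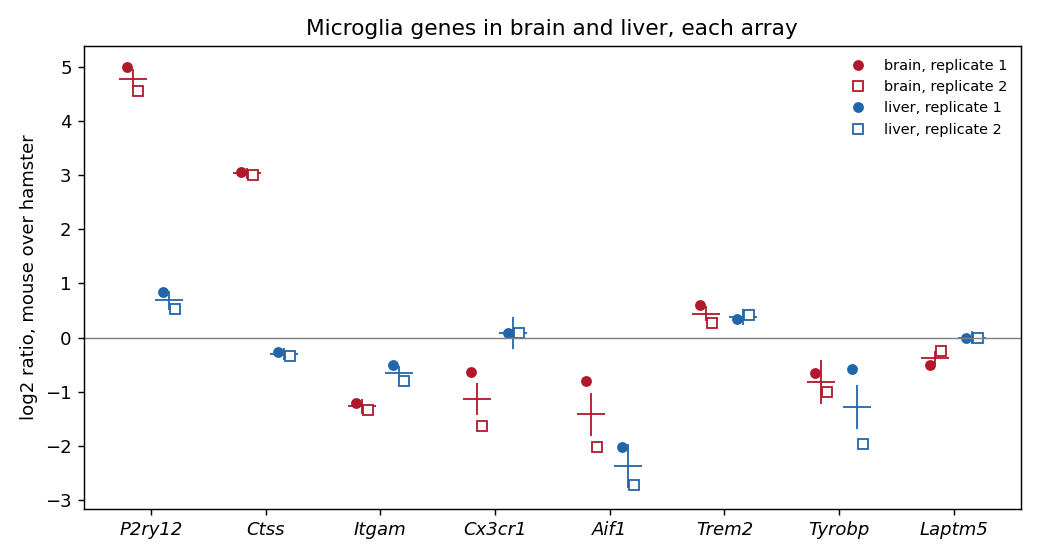
Log2 ratio of mouse over hamster (vertical axis) for the 8 genes (horizontal axis) on each brain and liver array. Filled circles are replicate 1, open squares replicate 2, horizontal dashes the tissue means, and vertical lines the SE of limma. P2ry12 and Ctss stand at 4.79 and 3.04 in brain and at 0.69 and -0.30 in liver, and Aif1 lies below 0 on all 4 arrays.

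Among the receptors for soluble signals, P2ry12 had log2 ratios of 5.01 and 4.56 on the brain arrays, a mean of 4.79 ± 0.18 (n = 2, adjusted p = 0.0172). Its brain mean was above that of 99.2% of all genes. Both brain arrays stood far above both liver arrays. The liver arrays were its middle pair, so the lack of overlap between arrays of unlike orientation depends in part on the centring. Within an orientation the centring shifts brain and liver alike and leaves their order. Cx3cr1, the receptor for the neuronal chemokine fractalkine, had -0.65 and -1.64, a mean of -1.14 ± 0.29 (adjusted p = 0.0761). It was lower on both arrays, by 2.20-fold in the mean, and the arrays differed by 0.99. With the replicate block Cx3cr1 was called (adjusted p = 0.0417).

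Itgam, which pairs with Itgb2 and marks myeloid cells as CD11b, had -1.21 and -1.33, a mean of -1.27 ± 0.13 (adjusted p = 0.0288). Its partner Itgb2 had a brain mean of -0.14 ± 0.16 and was not called (adjusted p = 0.504). The chains of the heterodimer thus had different ratios on their own probes, a difference that was not tested between genes.

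Trem2, a receptor for lipids and lipoproteins, signals through Tyrobp, an adaptor with an immunoreceptor activation motif. Trem2 had 0.61 and 0.28 in brain, a mean of 0.44 ± 0.14 (adjusted p = 0.0991), and Tyrobp had -0.65 and -1.01, a mean of -0.83 ± 0.41 (adjusted p = 0.194). Neither was called with the replicate block (adjusted p = 0.193 for Trem2 and 0.0857 for Tyrobp). The receptor lay above 0 and the adaptor below it on both arrays.

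Of the lysosomal members, Ctss had 3.06 and 3.01, a mean of 3.04 ± 0.11 (adjusted p = 0.0172), above that of 95.1% of all genes. Laptm5, a lysosomal membrane protein of haematopoietic cells, had -0.51 and -0.25, a mean of -0.38 ± 0.13 (adjusted p = 0.109). Aif1, the calcium-binding protein IBA1 that bundles actin in moving microglia, had -0.81 and -2.03, a mean of -1.42 ± 0.40 (adjusted p = 0.0859), and was called with the replicate block (adjusted p = 0.0169). Its brain mean was above that of 4.71% of all genes.

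In mouse brain limma thus called 3 of the 8 members, 2 as higher and 1 as lower, where 16.0% of all genes were called, 10.1% as higher and 5.91% as lower. The replicate block gave 5 of 8, 2 as higher and 3 as lower, where 31.6% of all genes were called. The members' median was -0.60, against 0.06 over all genes. The list did not move one way: P2ry12 and Ctss lay among the higher genes of the array while Aif1, Itgam and Cx3cr1 lay among its lower ones. Without any 1 of the 4 tissue arrays no gene kept its call in brain. The value of P2ry12 then ran from 4.56 to 5.01 and that of Ctss from 3.01 to 3.06.

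In liver the ratios of P2ry12 and Ctss were smaller in size than in brain. P2ry12 still had the highest liver mean of the 8, at 1.61-fold higher in mouse, and Ctss was at 1.23-fold lower. Aif1 had the lowest liver ratio of the 8, at 5.20-fold lower in mouse, and Tyrobp followed at 2.43-fold lower. Neither was called without the replicate block.

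On the liver arrays P2ry12 had 0.85 and 0.53, a mean of 0.69 ± 0.18 (adjusted p = 0.0935), with a 95% interval from 0.14 to 1.24. Ctss had -0.27 and -0.33, a mean of -0.30 ± 0.11 (adjusted p = 0.129). Itgam had -0.51 and -0.80, a mean of -0.65 ± 0.13 (adjusted p = 0.0816), so it was below 0 on all 4 tissue arrays. Cx3cr1, which Kupffer cells largely lack, had 0.088 and 0.083, a mean of 0.085 ± 0.29 (adjusted p = 0.833). Its 95% interval ran from -0.79 to 0.96, which leaves room for a difference of that size in either direction.

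Aif1 had -2.03 and -2.73 in liver, a mean of -2.38 ± 0.40 (adjusted p = 0.0668), above that of only 0.976% of all genes. With the replicate block it was called as lower (adjusted p = 0.00863). Tyrobp had -0.59 and -1.97, a mean of -1.28 ± 0.41 (adjusted p = 0.112), and was called with the block (adjusted p = 0.0394). Trem2 had 0.34 and 0.42, a mean of 0.38 ± 0.14 (adjusted p = 0.135), close to its brain value. Laptm5 had a liver mean of -0.00067 with an interval from -0.38 to 0.38 (adjusted p = 0.997). Trem2 was thus above 0 on all 4 arrays, and Aif1, Itgam and Tyrobp were below 0 on all 4. The centring sets part of this agreement in sign, as described above.

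By limma 0 of the 8 members were called in liver, where 4.61% of all genes were called (2.35% as higher and 2.26% as lower). At an unadjusted p under 0.05, 4 members passed, and the share of all genes at that limit is not given here. With the replicate block 2 were called, both lower, where 25.6% of all genes were called. The members' liver median was -0.15, against 0.02 over all genes.

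The third comparison set the species ratio in brain against that in liver, within each probe. Here P2ry12 and Ctss alone were called. The species ratio of P2ry12 was 17.1-fold higher in brain than in liver and that of Ctss 10.1-fold higher. The other 6 members were not called.

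P2ry12 differed by 4.10 ± 0.26 on the log2 scale (adjusted p = 0.0328; 0.0163 with the replicate block) and Ctss by 3.34 ± 0.15 (adjusted p = 0.0324; 0.0181 with the block). Both differences were higher than those of 98.6% of all genes or more. With the arrays scaled to equal spread, P2ry12 differed by 3.85 and was not called (adjusted p = 0.0538), while Ctss kept its call. Cx3cr1 was lower in brain than in liver by -1.23 ± 0.41 (adjusted p = 0.157), and Itgam by -0.62 ± 0.19 (adjusted p = 0.139). For both, neither brain array reached the range of the liver arrays, and liver was the middle pair. The lack of overlap between unlike orientations thus depends in part on the centring, and the order within an orientation does not. Aif1 differed by 0.96 ± 0.56 (adjusted p = 0.335) and Laptm5 by -0.38 ± 0.18 (adjusted p = 0.258).

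Trem2 differed by 0.061 ± 0.20 (adjusted p = 0.860), with a 95% interval from -0.53 to 0.66, so a difference of the size seen for P2ry12 or Ctss lay far outside it. Tyrobp differed by 0.45 ± 0.58 (adjusted p = 0.636), with an interval from -1.28 to 2.19. Of the 8 members 2 were called as higher in brain, where 3.53% of all genes were, and 0 as lower, where 2.54% were, 6.07% in both directions. The same 2 members were called with the replicate block, where 8.81% of all genes were. By unadjusted p under 0.05, 3 of the 8 members passed, and the share of all genes at that limit is not given here. Without any 1 of the tissue arrays 0 members and 0 genes were called, with P2ry12 between 3.88 and 4.32 and Ctss at 3.31 or above.

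**Figure D2:**
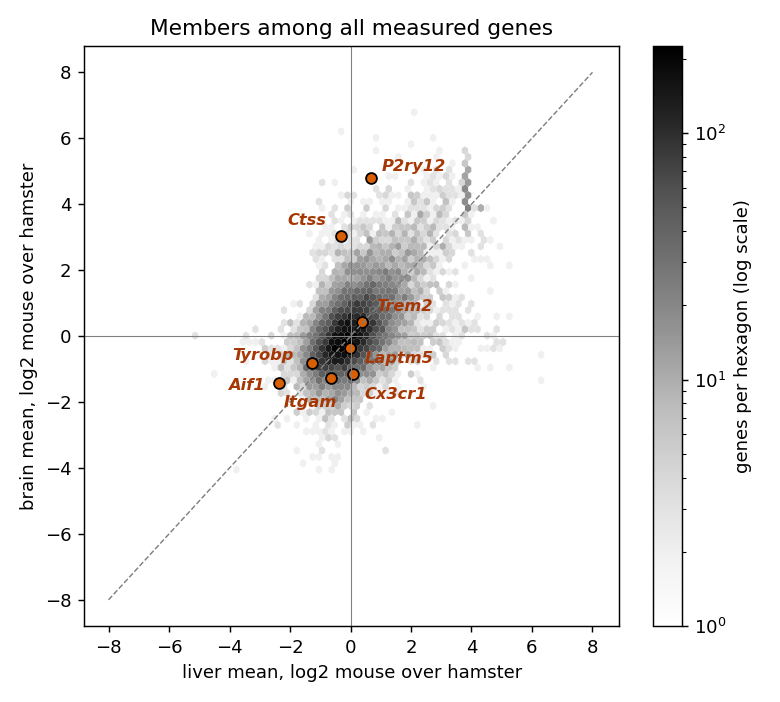
Brain mean (vertical axis) against liver mean (horizontal axis), both log2 ratios of mouse over hamster, for all 16504 genes as grey hexagons and the 8 members as orange points. The dashed line marks equal ratios. P2ry12 and Ctss lie far above the line, and Trem2 lies on it at 0.38 in liver and 0.44 in brain.

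Other genes of microglia and macrophages were counted on the same fit, from lists of names. Of 17 further microglia-enriched genes, limma called 4 as higher in mouse brain and 0 as lower. In liver it called 0 as higher and 3 as lower. The replicate block called 7 as higher and 0 as lower in brain, and 2 as higher and 4 as lower in liver. The highest in brain were Rgs10, a regulator of G protein signalling, at 3.51 ± 0.12 (adjusted p = 0.0172), and P2ry13, another nucleotide receptor, at 1.72 ± 0.12 (adjusted p = 0.0212). Lower ones in liver included Gpr34, a lysophosphatidylserine receptor, at -1.33 ± 0.15, and Ctsf at -1.26 ± 0.12. In brain minus liver 3 of the 17 were higher, with Rgs10 at 3.11, P2ry13 at 1.73 and Tmem119 at 1.27, of which Tmem119 was not called with the block (adjusted p = 0.0788). Their median in brain was 0.53, where that of the 8 members was -0.60.

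Of 27 pan-macrophage genes, 2 were higher in brain, Ptprc, the leukocyte phosphatase CD45, at 4.11 ± 0.57 (adjusted p = 0.0385) and Fcer1g, an adaptor related to Tyrobp, at 1.13 ± 0.16 (adjusted p = 0.0381). On the lower side were Lcp1, an actin bundler of leukocytes, at -2.85 ± 0.44 (adjusted p = 0.0433) and Msr1, a scavenger receptor, at -0.79 ± 0.12 (adjusted p = 0.0443). In liver 0 of the 27 were called by limma. The replicate block gave 8 higher and 1 lower in brain, where Msr1 lost its call (adjusted p = 0.0577), and 3 higher and 1 lower in liver. In brain minus liver it gave 2 higher and 1 lower in place of 0. Of 7 Kupffer cell genes only the folate receptor gene Folr2 was called in brain, at -1.38 ± 0.11 (adjusted p = 0.0228), and 0 in liver, where the block called 1 as higher.

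Among 19 ligands and signalling partners of the members, Cx3cl1, the fractalkine that binds Cx3cr1, was 2.86 ± 0.12 in brain (adjusted p = 0.0177) and differed by 3.27 ± 0.17 between the tissues (adjusted p = 0.0328). Ligand and receptor thus lay on opposite sides of 0 in brain, with Cx3cr1 at -1.14. Il34, a ligand of the colony-stimulating factor receptor, was -1.42 ± 0.15 in liver (adjusted p = 0.0456) and was not called in brain. Csf1, the other ligand, averaged -0.70 ± 0.66 in brain and was not called (adjusted p = 0.439). Syk, the kinase recruited by Tyrobp, averaged 0.43 ± 0.10 in brain (adjusted p = 0.0712). Of the 19, limma called 1 as higher and 0 as lower in brain, and 0 and 1 in liver, while the block gave 3 and 2 in brain and 1 and 5 in liver.

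Of 13 cathepsins other than Ctss, 1 was higher in brain, Ctsb at 0.94 ± 0.11 (adjusted p = 0.0305), and 2 were lower, Ctsz at -0.96 ± 0.15 and Ctsg at -0.79 ± 0.10. Ctsf was lower in liver, and in brain minus liver only Ctsw was called, at 1.5 ± 0.19. Ctsw (adjusted p = 0.0588) and, in brain, Ctsg (adjusted p = 0.0536) lost their calls with the replicate block. The block called 3 cathepsins as higher and 2 as lower in brain, 3 and 4 in liver, and in brain minus liver only Ctse, as lower at -2.25. Of 7 P2Y receptors other than P2ry12, P2ry13 was higher in brain and P2ry6 lower, at -1.33 ± 0.15 (adjusted p = 0.0305). The brain ratios of Ctss and P2ry12 lay above those of every other listed cathepsin and P2Y receptor, whose highest means were 1.43 and 1.72.

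Markers of other cell types were counted on the same fit, some of which were called in brain. Of 8 astrocyte markers 6 were higher in mouse brain, with a median of 2.29, among them Mlc1 at 5.11 ± 0.49 and Slc1a3 at 5.24 or more, since 1 of its values lay at the floor. In brain minus liver 4 of the 8 were called, with Mlc1 at 6.39 and Aqp4 at 4.79. Of 10 neuron markers 2 were higher, Eno2 at 3.14 ± 0.39 and Camk2a at 1.46 ± 0.21, and Eno2 differed between the tissues by 4.67. Of 7 oligodendrocyte markers 1 was called, Mobp as lower at -1.5 ± 0.21, with a list median of -0.26 and 3 of the 7 above 0. Of 13 blood cell markers 1 was higher in brain, Cd3e at 1.27 ± 0.13, and 3 were lower, with Cd79a at -2.59 ± 0.16 and Ms4a1 at -1.33 ± 0.17. Of 6 endothelium markers 1 was called, Pecam1 as lower at -1.45 ± 0.14, and the others ran up to 0.72. Among 10 genes listed as fibroblast markers 3 were higher in brain, led by Thy1 at 2.74 ± 0.47 and Vim at 2.18 ± 0.11. The median of that list in brain was -0.17, with 4 of the 10 above 0. In liver Col1a2 was lower at -1.19 ± 0.11, and 3 of 7 hepatocyte markers were higher, led by Apoa1 at 4.33 ± 0.37 and Tat at 3.79 ± 0.11. Hnf4a was called in brain at 0.75 ± 0.12, but not with the replicate block (adjusted p = 0.0632). In brain the block gave 7 higher astrocyte markers, 3 higher and 1 lower neuron markers, 1 higher and 6 lower blood cell markers, and 4 higher and 1 lower fibroblast markers. In liver it called 2 astrocyte markers as lower, 1 neuron marker as higher and 2 as lower, 2 blood cell markers as higher, 1 hepatocyte marker as lower beside the 3 higher, and 1 fibroblast marker as higher and 3 as lower. In brain minus liver it called 5 astrocyte markers and 2 fibroblast markers as higher and 4 blood cell markers as lower. The part of other cell types in the members' ratios was not tested.

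**Figure D3:**
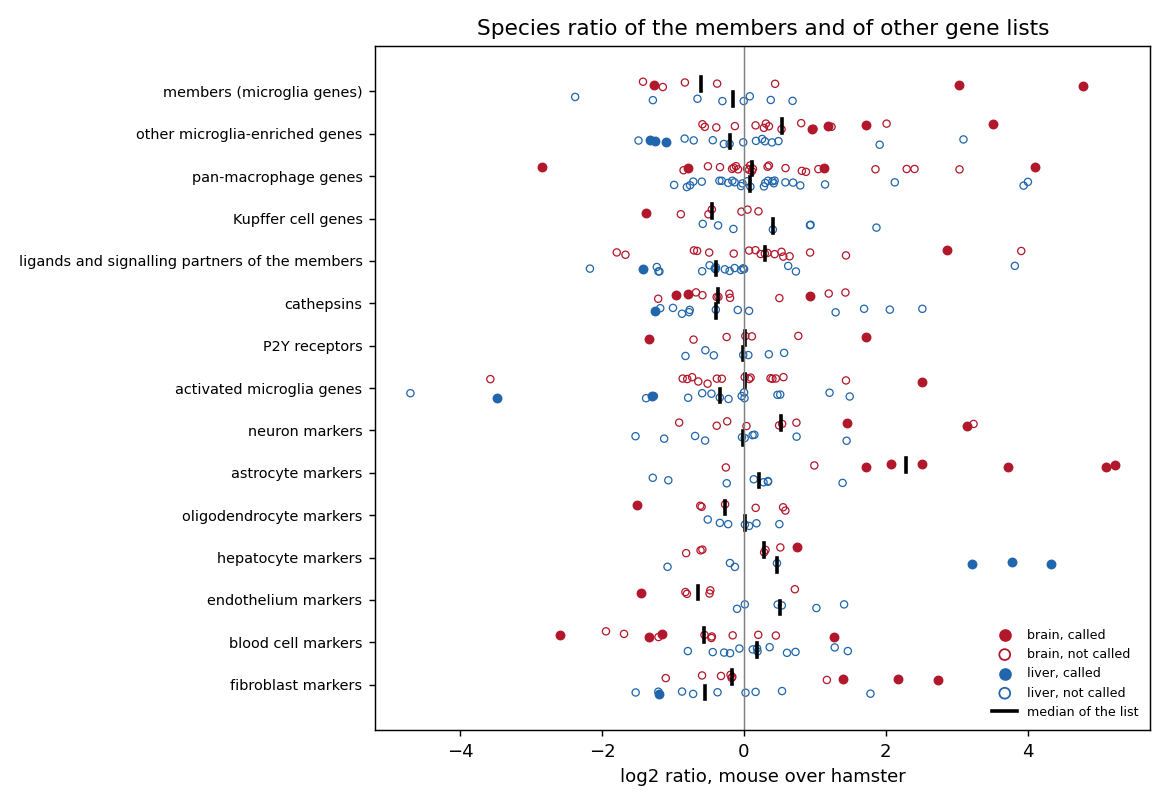
Log2 ratio of mouse over hamster (horizontal axis) for each gene of the members and of 14 other lists (rows), in brain (red) and liver (blue). Filled points were called by limma, open points were not, and black bars are list medians. The members' brain median lies at -0.60 and that of the astrocyte markers at 2.29.

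The hybrid lines were described beside the tissues. For 6 of the 8 members the mean over the lines had opposite signs in the 2 dye orientations, as it had for 61.3% of all genes, and the mean of both lay near 0. Cx3cr1 was the exception that was called, as slightly lower than A23. No member was called as differing between lines.

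Cx3cr1 ran from -1.36 to 0.43 over the 99 line means with a median of -0.17, and was above 0 in 19 lines. Its mean was -0.24 ± 0.03, a 1.18-fold lower level than in A23 (limma adjusted p = 2.6e-09), with -0.16 in replicate 1 and -0.32 in replicate 2. A gene was called in the panel at an adjusted p under 0.05 and a mean of at least 0.2 in size. The mean of Cx3cr1 fell just short of that size with the arrays scaled (-0.197), and without the 8 lines that had an array with an SD over genes above 1.5 (-0.198). It was -0.16 in replicate 1 alone as well. In the 28 lines whose second array correlated best with its own first, it was -0.16, and Itgam was the member called there, at -0.24 (adjusted p = 0.0148).

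P2ry12 had line means from -1.94 to 4.20 with a median of 0 and a mean of 0.013 ± 0.08, with 0.39 in replicate 1 and -0.36 in replicate 2. Its ratio was exactly 0 on 77 of 198 arrays (38.9%), more than on any other member. Aif1 averaged -0.33 in replicate 1 and 0.33 in replicate 2, Itgam 0.34 and -0.28, Laptm5 0.42 and -0.32, Tyrobp 0.18 and -0.29, and Trem2 -0.13 and 0.17. For each of these 6 genes each orientation alone had an adjusted p under 0.05, in opposite directions. Of all genes 34.9% had an adjusted p under 0.05 in each orientation in opposite directions. By the panel rule with its size limit, 0 of the 8 members were called in the same direction in each orientation alone, where 9.34% of all genes were. Ctss ran from -0.80 to 0.48 over the lines, the narrowest range of the 8, and averaged -0.063 ± 0.02 (adjusted p = 0.00696), under the size limit.

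Thus 1 of 8 members was called in the panel, as lower, where 31.0% of all genes were called, 11.4% as lower. The members' panel median was 0.0051 and that of all genes 0.013. Tk1, the mouse gene for which hybrids are selected, averaged 1.84 and was above 0 in 98 of 99 lines.

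**Figure D4:**
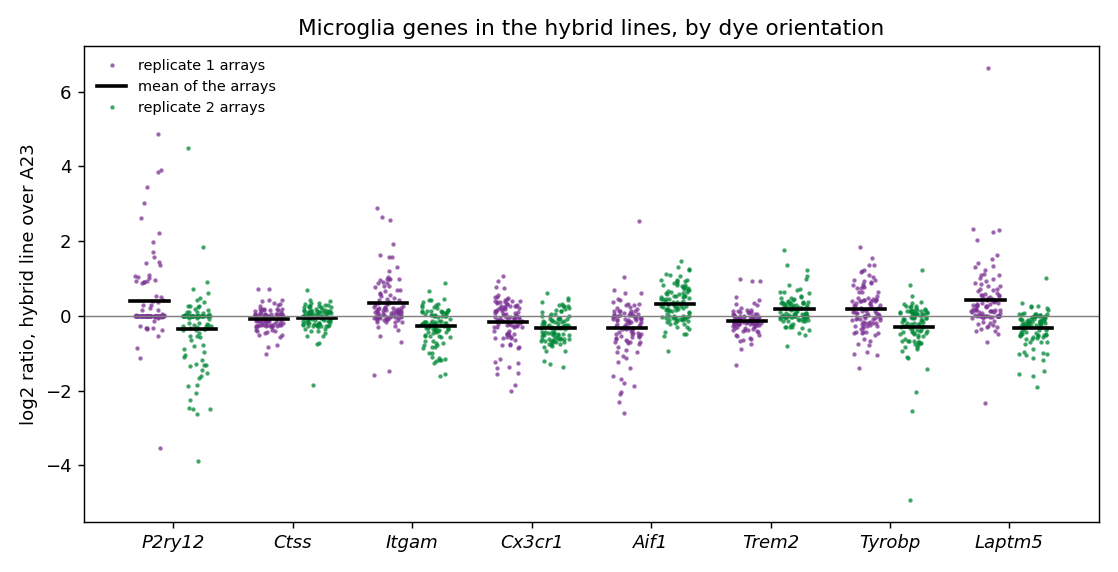
Log2 ratio of hybrid over A23 (vertical axis) for the 8 members (horizontal axis) on each of 198 arrays, purple for replicate 1 and green for replicate 2, with black bars at the means. The bars of P2ry12, Itgam, Aif1, Trem2, Tyrobp and Laptm5 lie on opposite sides of 0, and the highest point is Laptm5 in line 14.

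Whether the lines differed among themselves was asked with an F test in limma over all 198 arrays, in a model that also held the dye orientation. It called 0 of the 8 members, where 8.88% of all genes were called. At an unadjusted p under 0.05, 1 member passed, P2ry12 (adjusted p = 0.0522), where 18.6% of all genes did. With the arrays scaled P2ry12 was called (adjusted p = 4.3e-05), and without the dye term it was not (adjusted p = 0.918). Between the 2 arrays of a line the intraclass correlation was 0.245 for P2ry12, above that of 90.4% of genes. It was between -0.0845 and 0.0575 for the other 7 members, where the median of all genes was 0.0414. Line 15, at 3.91 and 4.49, weighs heavily in the value of P2ry12. Its Spearman rank correlation between the 2 orientations was 0.209.

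Single lines that differed from A23 were sought with the same fit, adjusted over all genes of a line. Over all genes and lines 1.34% of the pairs were called as higher and 0.746% as lower. P2ry12 was called as higher in 3 lines. In line 15 both arrays were high, at 3.91 and 4.49. In lines 37 and 42 it was high on the first array only, at 3.84 and 4.86, and at -0.061 and 0.17 on the second.

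The first arrays of lines 37 and 42 had SDs of 1.87 and 2.37 over genes, near the widest of all 202 arrays (0.397 to 2.43). P2ry13 and P2ry14 lie in the same gene cluster as P2ry12. In line 15 P2ry13 was exactly 0 on both arrays, and P2ry14 had 0.11 and 2.46 and was not called. In line 42 P2ry13 had 4.36 and 0.77 and was called (adjusted p = 0.00314), as it was in line 37 with 4.22 and 0.84 (adjusted p = 0.0259).

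Trem2 was called in line 36, with 0.94 and 1.36. Itgam was called as lower in line 41, with -1.57 and -1.17, and Cx3cr1 in lines 37 and 42, with -1.40 and -0.80 and with -2.01 and -0.72. In each of these calls both arrays lay beyond 0.5 in the same direction. Laptm5 in line 14 rested on 1 array, with 6.64 at the floor of the deposited values and -0.14 on the other. Tyrobp in line 49 had 0.40 and -4.93, Ctss in line 6 had 0.25 and -1.85, Itgam in lines 14 and 59 had 2.88 and -0.27 and 2.56 and -0.20, and Aif1 in lines 42 and 59 had -2.60 and 0.27 and -2.31 and -0.07.

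The members had no common direction across the lines. Pearson correlations of the 28 pairs over the 99 line means ran from -0.582 (Itgam and Aif1) to 0.484 (Cx3cr1 and Aif1), with a median of -0.153 and 12 pairs above 0. Over all pairs of genes 95% of the values lay between -0.431 and 0.539, with a median of -0.0014. Line means share their arrays and the A23 reference. When the first array of a line was set against the second array for the other gene, the 28 correlations shrank to between -0.0937 and 0.118, with a median of 0.0088.

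Aif1 lies in the class III region of the MHC, and 23 listed neighbours there were measured. Correlations of Aif1 with them over the line means ran from -0.543 for Ltb to 0.666 for Nelfe, with a median of 0.410 and 15 above 0. Aif1 against all genes had 95% of its values between -0.547 and 0.683. Across arrays of different replicates the 23 values lay between -0.143 and 0.118, with a median of 0.0011.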

How the data were processed

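The authors deposited, per the labels, a log10 ratio (Cy5 to Cy3) for each feature of the 202 arrays. The sources used here do not give the scanner software, background correction or normalization. No intensities were used, and precision is limited by how many arrays there are. The lowest deposited value is -2, which acts as a floor. The log10 ratios were turned by the dye labels to mouse over hamster and hybrid over A23 and converted to log2. Of 20868 features 17786 had a single symbol in the array's probe table, 16 had several and 3066 none, and features of a symbol were averaged.

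Tissue ratios were fitted with limma 3.58.1 in R 4.3.3 with tissue as the factor, the panel on 1 mean per line against 0, and differences between lines by a moderated F test with dye orientation as a term. P-values were adjusted over all 16504 genes. The labels call the 2 arrays of a tissue or line biological replicas and name no animals or cultures, so the p-values reflect the spread among these arrays alone, and that spread may be technical.

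Per the labels replicate 2 is the dye swap, so the number marks the orientation. In the data same-numbered brain and liver arrays deviated together (r = 0.439 across genes), so the fit with the replicate block is given for the members beside calls it changed, and for other lists as counts and lost calls. How much of that correlation comes from the centring of features was not tested.

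Members and lists were chosen with earlier results of these data known. All members are named, and of the other lists the 2 highest and 2 lowest called genes of a comparison. Neighbours by position could not be ranked, so a list of class III genes was used for Aif1. For the 28 lines whose arrays match, genes were first centred within each orientation. Alternatives were the replicate block, arrays left out, arrays scaled, exact zeros missing, single features, a robust prior and no size limit, and leaving out lines with a wide array, which was chosen after seeing the data. The fits were tested on simulated data with independent noise on each array, without centring or a shared dye term. Such data cannot show how the tissue p-values behave under the centring.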

Additional observations from a re-analysis of the deposited data

Results flagged for a closer look

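The species ratio of 2 members differed between brain and liver by the test of the difference itself. P2ry12 was 4.10 higher in brain on the log2 scale (limma adjusted p = 0.0328, over its alternatives 0.0163 to 0.144), and all of its brain values lay above all of its liver values. Ctss was 3.34 higher (adjusted p = 0.0324, over its alternatives 0.0181 to 0.144), again with no overlap. For both genes liver was the middle pair, so the lack of overlap between arrays of unlike orientation depends in part on the centring. Within an orientation the centring shifts brain and liver alike and leaves their order. That order is part of the tested difference and is no separate support. P2ry12 lies above 0 in both tissues, and Ctss above 0 in brain and below it in liver. Groups of 2 arrays are too small to look for outlying arrays.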

How the results depend on the processing

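The directions of all 8 members in brain and in liver were the same under every alternative run, as the form of these alternatives required. Each member had the same sign on both arrays of a tissue, so neither scaling nor leaving out 1 array could turn its direction. The other alternatives left the member means as they were. With the replicate block, members called rose from 3 to 5 in brain and from 0 to 2 in liver, where a block removes 1 residual degree of freedom and 5216 and 4218 of all genes were called. Its 2 calls in brain minus liver were also P2ry12 and Ctss. Leaving out 1 tissue array gave 0 members called in each tissue comparison (0 to 0). With arrays scaled, 1 member was called in brain minus liver, where 496 of all genes were. Exact zeros as missing, single features and a robust prior left the tissue counts as they were. In brain minus liver Trem2 was between -0.10 and 0.22 and Tyrobp between -0.24 and 1.14 when 1 array was left out.

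In the panel the count of 1 became 4 without replicate 2, 6 without replicate 1, 0 with arrays scaled, 2 with no size limit and 0 without lines with a wide array. It was also 1 in the 28 matching lines, where the gene was Itgam and not Cx3cr1. The shares of all genes called under these alternatives are not given here. Of all genes, 34.9% had an adjusted p under 0.05 by limma in each orientation alone, in opposite directions. With 1 replicate left out the panel mean lay at -0.36 and 0.39 for P2ry12, -0.28 and 0.34 for Itgam, -0.33 and 0.33 for Aif1, -0.13 and 0.17 for Trem2, -0.29 and 0.18 for Tyrobp, and -0.32 and 0.42 for Laptm5. P2ry12 was -0.059 with exact zeros missing, -0.0095 with arrays scaled, -0.22 in the matching lines and -0.023 without wide arrays. Aif1 was 0.0048 with arrays scaled, 0.18 in the matching lines and 0.035 without wide arrays. Itgam was -0.24 in the matching lines and -0.017 without wide arrays, and Laptm5 was -0.0037 without wide arrays. The cause was not tested.

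Differences between lines gave 0 members in the fit with the dye term, 0 with no replicate block, 1 with arrays scaled (P2ry12) and 1 in the matching lines (Aif1, adjusted p = 0.0156), which were chosen because their arrays correlate. With exact zeros missing only 2 members, Ctss and Trem2, could be tested. The shares of all genes called under these alternatives are not given here.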

Other observations

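Genes that microglia raise when activated showed no common direction in brain, and those called in liver were all lower. Of 17 listed, Cd83, a surface protein of activated antigen-presenting cells, was higher in mouse brain at 2.52 ± 0.28 (limma adjusted p = 0.0305), and the other 16 were not called there. In liver the tetraspanin Cd63 was lower at -3.47 ± 0.31 and Gpnmb, a glycoprotein of phagocytes, at -1.29 ± 0.13. Cd63 differed between the tissues by 3.88 ± 0.44 (adjusted p = 0.0458). The replicate block called 2 as higher and 2 as lower in brain, and 0 as higher and 5 as lower in liver. It called 1521 of all 16504 genes as lower in liver. The list's median was 0.013 in brain, with 9 of the 17 above 0, and -0.34 in liver, with 6 above 0.

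Of the 23 measured neighbours of Aif1 in the MHC class III region, 3 were lower in mouse brain, with Neu1, a lysosomal sialidase, at -1.54 ± 0.19 and Lst1, a leukocyte membrane protein, at -1.08 ± 0.10. In liver 1 was higher, Apom, an apolipoprotein, at 4.16 ± 0.38. The replicate block called 3 as lower in brain, 3 as higher in liver and 1 as lower in brain minus liver. Aif1, at -2.38, had the lowest liver mean of these 24 genes, whose neighbours ran from -0.70 to 4.16. Over the array as a whole the middle pair of the tissue ratios was the 2 liver arrays in 36.4% of the features, the 2 brain arrays in 28.8% and 1 array of each tissue in 34.8%.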
